A study of Mus musculus with 7 samples.

Results

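The genes of a set that regulates or marks type 17 T cells were followed in sorted thymic T cells: Rora, Il23r, Il17re, Il17ra, Serpinb1a, Tmem176a, Tmem176b and Ccr6. They were chosen by name, and every probe set that the platform annotation pairs with exactly 1 gene symbol was taken. Of the 8 genes, 7 had such a probe set and 1, Il23r, had none and was not analysed here. The 7 genes held 21 of the 45037 probe sets on each array and were 7 of 18193 genes named in this way. The main value of a gene is that of its probe set of highest mean.

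Gene expression had been measured on 7 single-colour arrays of cells from C57BL/6J-background mice aged 4 to 6 weeks, and each sample came from pooled mice. Luxoid NKT cells (n = 3) came from mice that carried a Valpha14 T cell receptor transgene and the Luxoid mutation, which the labels describe as PLZF-deficient. Stage 1 NKT cells (n = 2) came from mice with the same transgene and no Luxoid mutation. CD4SP thymocytes (n = 2) came from wild-type mice without the transgene, so cell type and transgene cannot be told apart in comparisons with CD4SP. Luxoid NKT differed from CD4SP by the Luxoid mutation as well. NKT cells were sorted as binding CD1d tetramer, low for CD24 and negative for CD44 and NK1.1. For both CD4SP samples 1 label repeats the NKT sort, while titles, sources and descriptions name CD4SP.

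Type 17 T cells make interleukin 17 and serve at barrier tissues. Nuclear receptors of the ROR family, among them RORalpha (gene Rora), take part in setting their identity. Interleukin 23 acts on them through a receptor of Il23r and Il12rb1, and interleukin 17 acts on other cells through receptors that share Il17ra. NKT cells recognise lipids on CD1d, and an interleukin 17-producing NKT subset, NKT17, is found mainly among CD44-positive cells, which this sort left out. PLZF, encoded by Zbtb16, is the transcription factor that gives NKT cells their effector character.

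The word AGGTCA is the core to which ROR receptors bind, and it was looked for on both strands in the 250 bases before each annotated start (RefSeq, GRCm38.p6). Promoter windows were given for 6 of the 8 members, 10 windows in all, and 2 of the 10 held the word, against 14% of 32851 windows of the same length over all genes. Both also held the longer word TAGGTCA, which contains the first and was found in 2.23% of all windows. The windows of Tmem176a and Tmem176b overlap one another in part, so the 10 windows are not separate. The windows with the word are printed below 5′ to 3′ on the strand of the gene, because they belong to the receptor of interleukin 23 and to the homing receptor of type 17 cells, with AGGTCA or its reverse complement in capitals. Such a match describes letters and is not a measured site.
Il23r, chr6:67491856-67492105, minus strand: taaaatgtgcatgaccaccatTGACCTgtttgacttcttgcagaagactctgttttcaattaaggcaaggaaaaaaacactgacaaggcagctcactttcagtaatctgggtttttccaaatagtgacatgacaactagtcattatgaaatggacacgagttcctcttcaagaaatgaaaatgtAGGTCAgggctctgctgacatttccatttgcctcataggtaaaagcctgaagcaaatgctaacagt
Ccr6, chr17:8235793-8236042, plus strand: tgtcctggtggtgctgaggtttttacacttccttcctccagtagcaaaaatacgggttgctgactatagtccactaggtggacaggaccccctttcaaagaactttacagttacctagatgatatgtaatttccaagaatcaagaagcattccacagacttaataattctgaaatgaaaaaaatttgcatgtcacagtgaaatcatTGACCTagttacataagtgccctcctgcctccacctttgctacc
In the printed Ccr6 window the word lay on the minus strand, with its nearest base 39 bases before the start. Ccr6 has another annotated start, whose window held no match. In Il23r the nearer match lay on the strand of the gene, 61 bases before its start.

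The deposited values are intensities, with medians of 79.6 to 83.7 per array. Arrays of 1 group correlated at r = 0.984 to 0.992 over all probe sets. Arrays of different groups correlated at r = 0.968 to 0.992, so the ranges overlapped. The number of arrays limited the precision. Cd4 read 2164, 2360 and 2164 in Luxoid NKT, 1888 and 2232 in stage 1 NKT, and 5824 and 6754 in CD4SP. Cd24a, low in the NKT sort, read 14.9 to 57.1 in Luxoid NKT, 14.2 and 14.1 in stage 1 NKT, and 246 and 239 in CD4SP, so the NKT arrays lay below the CD4SP arrays by this marker. Zbtb16 read 1857 to 2774 in Luxoid NKT, 2751 and 3488 in stage 1 NKT, and 87.3 and 61.8 in CD4SP; the array measures the transcript and does not check the loss of the protein. The pools differed in sex within each group, and the fit with Y-linked expression as a covariate changed no call among the main probe sets of the members tested. Cd8a, a chain of the CD8 coreceptor, read 144, 184 and 152 in Luxoid NKT, 82.3 and 93.6 in stage 1 NKT, and 135 and 148 in CD4SP. It was higher in Luxoid than in stage 1 NKT by 0.86 ± 0.16 on the log2 scale (limma, adjusted p = 0.0342, but 0.0799 with only the 2 groups compared and 0.0659 to 0.283 without any 1 array other than Luxoid array 1), and Cd8b1 read 83.4, 43.8 and 123 in Luxoid NKT, 61.9 and 67.6 in stage 1 NKT, and 223 and 268 in CD4SP. The part of CD8-positive cells in the results was not tested.

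A gene was tested if its main probe set reached an intensity of 82.0, the middle of the distribution over all arrays, on at least 2 arrays, and 10874 genes did so. Of the 7 measured members, 5 passed this filter and 2, Serpinb1a and Ccr6, did not. To judge what an unexpressed gene reads here, 28 genes of other tissues, such as liver, pancreas, eye and testis, were read in the same way. Their mean intensities ran from 6.19 to 597 with a median of 41.7 and a 90th percentile of 116. The main values of Il17re (100.1), Tmem176a (102) and Tmem176b (105) therefore lay inside the range of these genes, of which 7, 6 and 6 were brighter. Ccr6 (48.1) and Serpinb1a (8.21) lay lower still, with 14 and 26 of the 28 brighter. Rora and Il17ra stood clear of nearly all of them, with 1 and 0 brighter. Not all 28 read as unexpressed in every group. Cela1 read 204, 219 and 166 in Luxoid NKT, 154 and 144 in stage 1 NKT, and 41.7 and 36.1 in CD4SP.

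**Figure D1:**
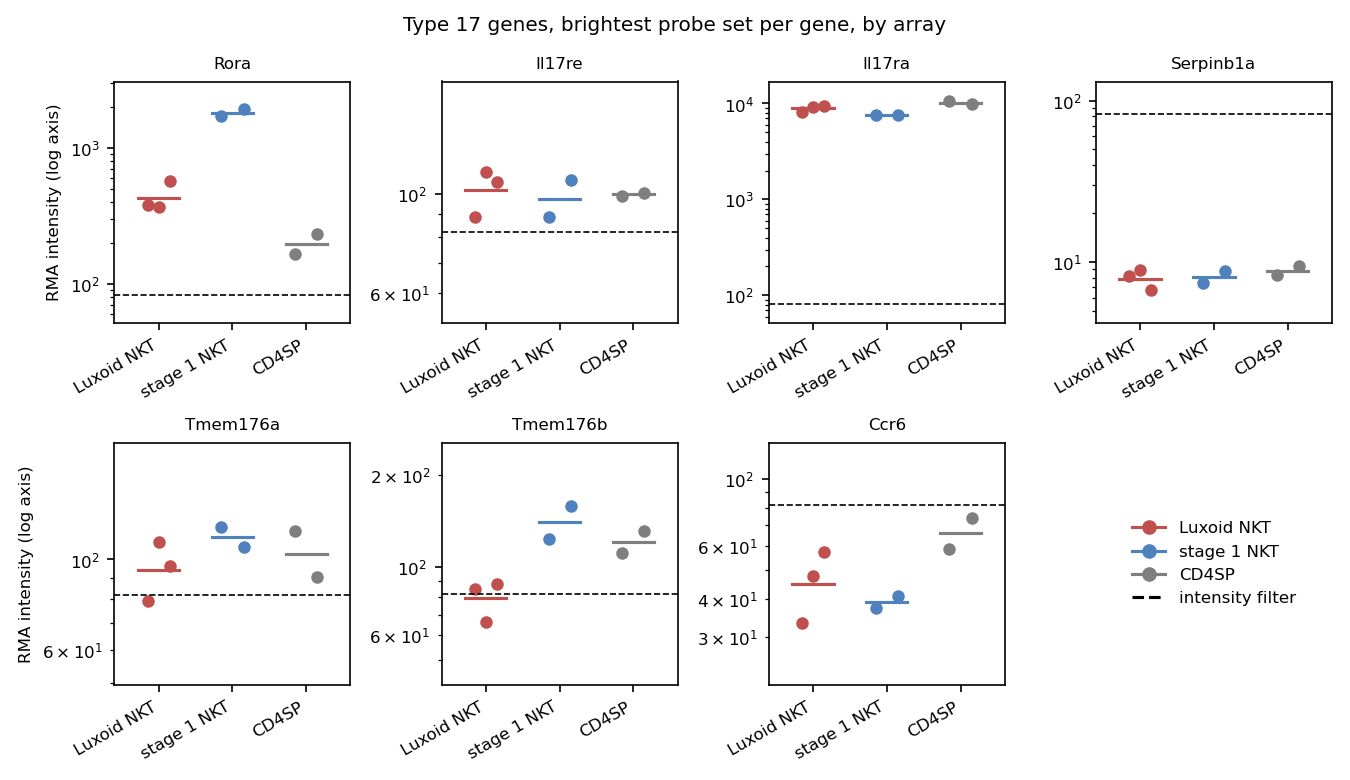
RMA intensity (log axis, scaled per gene) of the main probe set of each measured member in every array. Points are arrays, bars are geometric means of Luxoid NKT (n = 3), stage 1 NKT (n = 2) and CD4SP (n = 2), and the dashed line is the intensity filter of 82.0. Rora and Il17ra separate the 3 groups, Il17ra by smaller differences, while Serpinb1a and Ccr6 lie under the filter in every array. Any 2 groups are separate for 26.7% to 60.2% of tested genes.

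Between Luxoid and unmutated stage 1 NKT, both sorted as negative for CD44, Rora fell and no other tested member passed the threshold. Of 5 members tested 1 fell and 0 rose, with 0.653% of all genes tested called lower and 0.901% called higher. The members' median log2 difference was -0.26, against -0.03 over all genes tested. Every test of a single gene is limma's with Benjamini-Hochberg adjustment over all genes tested, and a difference is called at an adjusted p under 0.05. In a separate limma fit to all 34945 probe sets with 1 symbol, with no intensity filter, 0 of the 12 probe sets of members other than Rora passed after adjustment and 2 had an unadjusted p under 0.05, as did 8.35% of all probe sets.

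Rora encodes RORalpha, a nuclear receptor that acts in type 17 cells and is also used by innate lymphoid cells. Its main probe set read 378, 365 and 571 in Luxoid NKT, 1703 and 1922 in stage 1 NKT, and 165 and 231 in CD4SP. No 2 groups overlapped: every stage 1 NKT array was above every Luxoid array, and every Luxoid array above both CD4SP arrays. Groups did not overlap in either direction for 26.7% of all tested genes where Luxoid was set against stage 1 NKT. With CD4SP the shares were 60.2% for stage 1 NKT and 46% for Luxoid NKT. The same shares stand beside every tested gene below whose groups did not overlap. In these bulk samples fewer cells with the transcript and less transcript per cell cannot be told apart.

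The Luxoid mean of 428 against 1809 in stage 1 NKT was a 4.22-fold fall (log2 difference -2.08 ± 0.23, SE, n = 3 and 2, adjusted p = 0.00293). It was the 15th largest of 71 falls. Without stage 1 NKT array 2 the size was nearly the same (-1.99) and the adjusted p was 0.0638. Stage 1 NKT exceeded CD4SP by 9.26-fold (3.21 ± 0.25, adjusted p = 0.000109). Luxoid NKT still exceeded CD4SP by 2.19-fold (1.13 ± 0.23, adjusted p = 0.0113), and this call was lost without CD4SP array 1 (0.89, adjusted p = 0.104). On the log2 scale, 35.3% of the stage 1 NKT excess over CD4SP was left in Luxoid NKT. In both comparisons with CD4SP, Rora was the 1 of 5 tested members called, and it was higher; 10.8% of all genes were called higher and 4.08% lower in stage 1 NKT, and 11.3% higher and 5.51% lower in Luxoid NKT.

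Rora was read by 9 probe sets, more than any other member, and they allow the result to be checked within the gene. Of these, 7 passed the intensity filter and 2 read under it in all arrays, at 41.4 to 49.4 and 14.3 to 15.3 in Luxoid NKT, 40.6 and 46.0 and 13.5 and 14.9 in stage 1 NKT, and 44.1 and 44.1 and 14.8 and 14.9 in CD4SP. The groups overlapped for both dim probe sets. Probe sets of 1 gene share the RNA of the same arrays and are not replicates.

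For Luxoid against stage 1 NKT, the groups did not overlap for any of the 7 brighter probe sets, and all 7 read lower in Luxoid. Over all probe sets, 11.8% had groups that did not overlap with Luxoid lower. Their log2 differences ran from -2.64 to -1.73 with a median of -1.95. In the fit to all probe sets, 6 of the 7 were called, with 0.249% of all probe sets called lower. The exception, at 88.8, 116 and 115 in Luxoid NKT and 459 and 269 in stage 1 NKT, had a difference of -1.73 ± 0.35 (adjusted p = 0.109). Without stage 1 NKT array 1 the 6 calls became 1, and without array 2 they became 0. They became 5 with blocked replicate numbers, and 4 with only the 2 groups compared. Blocking by number leaves Luxoid array 3 without a partner, so its values do not enter the blocked differences here or below.

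For stage 1 NKT against CD4SP all 7 were called higher, with differences of 2.48 to 3.21 and 4.38% of all probe sets called higher. None of the 7 overlapped between these groups, which held with stage 1 NKT higher for 24% of all probe sets. For Luxoid NKT against CD4SP the 7 ran from 0.42 to 1.43 with a median of 0.81, and 3 were called, with 4.94% of all probe sets called higher. Luxoid NKT lay above CD4SP without overlap for 6 of the 7, as for 16.7% of all probe sets. The groups overlapped for the other, which read 127, 125 and 77.7 in Luxoid NKT and 60.5 and 92.5 in CD4SP. The 3 calls became 2 without any 1 Luxoid array, 1 without either stage 1 NKT array or CD4SP array 1, and 0 without CD4SP array 2. With blocked replicate numbers 2 of the 7 were called, 1 of which was not among the 3. The share of the stage 1 NKT excess left in Luxoid NKT ran from 14.7% to 45.2% on the log2 scale over the 7 probe sets. The upper ends, 1.43 and 45.2%, came from a probe set that read 58.3 and 26.5 in CD4SP, under the filter, where the Luxoid excess is a bound of at least 1.29-fold.

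**Figure D2:**
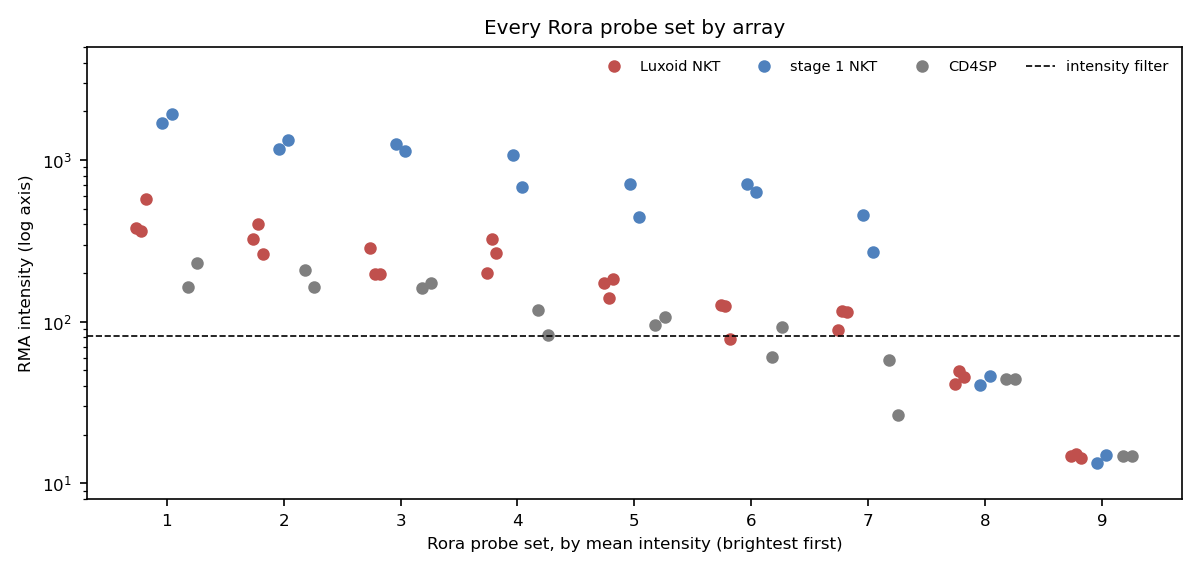
RMA intensity (log axis) of the 9 Rora probe sets, brightest first, with a point per array for Luxoid NKT, stage 1 NKT and CD4SP; the dashed line is the intensity filter of 82.0. In the 7 brighter probe sets the stage 1 NKT points lie above all others, and in the 2 dim ones the groups overlap.

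Among all genes tested, the 3 whose log2 profiles over the 7 arrays lay closest to that of Rora were Emp1, Il13 and Mctp1, with root mean square distances of 0.32, 0.40 and 0.40 against a median of 1.25 over all genes. Emp1 encodes an epithelial membrane protein and read 123, 140 and 134 in Luxoid NKT, 354 and 559 in stage 1 NKT, and 44.6 and 46.3 in CD4SP. Il13 encodes a type 2 cytokine and read 206, 265 and 215 in Luxoid NKT, 520 and 644 in stage 1 NKT, and 69.5 and 109 in CD4SP. Mctp1 read 38.7, 31.9 and 38.4 in Luxoid NKT, 173 and 208 in stage 1 NKT, and 27.9 and 17.1 in CD4SP, so it was under the filter in both other groups.

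Il17ra encodes the chain shared by the receptors of several interleukin 17 cytokines, and many cell types express it. Its main probe set read 8119, 9283 and 9341 in Luxoid NKT, 7567 and 7673 in stage 1 NKT, and 10593 and 9784 in CD4SP. The 3 groups did not overlap, with CD4SP highest and stage 1 NKT lowest. Lack of overlap was common: 60.2% of tested genes for stage 1 NKT against CD4SP and 46% for Luxoid NKT against CD4SP. For Luxoid against stage 1 NKT the share was 26.7%. The differences were small beside those of Rora: 0.22 ± 0.13 for Luxoid against stage 1 NKT (95% interval -0.08 to 0.53, adjusted p = 0.599), -0.42 ± 0.15 for stage 1 NKT against CD4SP (adjusted p = 0.0975) and -0.19 ± 0.13 for Luxoid NKT against CD4SP (adjusted p = 0.380).

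The second Il17ra probe set had the same order of groups. It read 2649, 2631 and 2281 in Luxoid NKT, 2227 and 2144 in stage 1 NKT, and 3283 and 3394 in CD4SP, again with no overlap. It was called lower in stage 1 NKT than in CD4SP (-0.61 ± 0.14, 1.53-fold, adjusted p = 0.0440), with 1.86% of all probe sets called lower. This call was lost with median centring (0.0530), with only the 2 groups compared (0.0615) and without any 1 array other than Luxoid array 2 (0.0502 to 0.195). Of the 8 member probe sets called in that comparison, 7 were called without any 1 array of either group. With the mean of both probe sets, Il17ra passed in that comparison (-0.51, adjusted p = 0.0192), as it did for the main probe set with an intensity trend and robust spread (adjusted p = 0.0142). Neighbouring groups in the order, Luxoid and stage 1 NKT, did not differ beyond the threshold by either probe set.

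Il17re encodes the partner of Il17ra in the receptor for interleukin 17C. Its main probe set read 88.9, 112 and 106 in Luxoid NKT, 88.9 and 107 in stage 1 NKT, and 99.2 and 100.4 in CD4SP. The groups overlapped throughout. The Luxoid difference was 0.06 from stage 1 NKT (95% interval -0.30 to 0.42) and 0.03 from CD4SP (-0.33 to 0.39). The stage 1 NKT difference from CD4SP was -0.03 (-0.42 to 0.36). Its other 2 probe sets read 34.2 to 38.2 and 11.1 to 13.8 over all arrays, under the filter.

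Tmem176a and Tmem176b encode related membrane proteins that are prominent in type 17 lymphocytes and also in dendritic cells, and the annotated spans of their genes overlap in the RefSeq assembly. Tmem176b read 84.7, 66.3 and 88.5 in Luxoid NKT, 123 and 159 in stage 1 NKT, and 112 and 131 in CD4SP. All 3 Luxoid arrays were below all others, while stage 1 NKT and CD4SP overlapped. The Luxoid difference was -0.82 ± 0.18 from stage 1 NKT (95% interval -1.24 to -0.40, adjusted p = 0.0822) and -0.61 ± 0.18 from CD4SP (adjusted p = 0.0546), and neither passed. They passed when other genes were read by the mean of their probe sets (adjusted p = 0.0477 and 0.0391), and the second also when replicate numbers were blocked (-0.69, adjusted p = 0.0498). Over the other alternatives, the adjusted p ran up to 0.563 for the first and 0.296 for the second.

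Tmem176a was read by 3 probe sets. The main one, of a type whose probes may also bind other transcripts, read 79.2, 110.4 and 96.4 in Luxoid NKT, 120.2 and 107 in stage 1 NKT, and 117 and 90.4 in CD4SP, and the groups overlapped. Its Luxoid difference from stage 1 NKT was -0.26 ± 0.19 (95% interval -0.69 to 0.16, adjusted p = 0.663). The others read 45.6, 57.0 and 43.2 against 87.7 and 55.7, and 23.5, 23.5 and 19.9 against 25.2 and 29.2, with differences of -0.53 (adjusted p = 0.569) and -0.29 (adjusted p = 0.796). All 3 had a negative value, and none passed.

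Because dendritic and other myeloid cells carry Tmem176a and Tmem176b, markers of these cells were read beside them. Of 12 such markers 11 had a probe set and 4 passed the filter. The summed intensity of the 11 was 643 to 665 in Luxoid NKT, 667 to 768 in stage 1 NKT, and 962 to 1050.2 in CD4SP. The defining genes Lyz2, Csf1r, Itgax and Adgre1 were under the filter in all arrays. Cd74, the invariant chain of class II molecules, read 117, 105 and 106 in Luxoid NKT, 140.5 and 149 in stage 1 NKT, and 261 and 248 in CD4SP. The sum and Cd74 were lowest in Luxoid NKT, as Tmem176b was. The sums of Luxoid and stage 1 NKT lay close, at up to 665 and from 667. Of the 4 markers tested, 0 were called higher and 0 lower between Luxoid and stage 1 NKT. Cd74 is part of the sum, so these are not separate readings. Lyz2, a lysozyme of myeloid cells, read 52.0, 53.0 and 48.5 in Luxoid NKT, 43.7 and 46.0 in stage 1 NKT, and 63.1 and 54.1 in CD4SP, so it was higher in Luxoid than in stage 1 NKT. Luxoid and stage 1 NKT did not overlap, in either direction, for 26.7% of tested genes. Stage 1 NKT and CD4SP did not overlap in the sum, and did overlap for Tmem176b. The part of such cells in the Tmem176b values was not tested.

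Ccr6 encodes the chemokine receptor that brings type 17 cells to sites with Ccl20. Its probe set read 33.3, 47.5 and 57.0 in Luxoid NKT, 37.1 and 40.8 in stage 1 NKT, and 58.6 and 74.3 in CD4SP. Every array was under the filter, so no fold is given. In the fit to all probe sets the difference was 0.20 ± 0.23 for Luxoid against stage 1 NKT (adjusted p = 0.905), -0.76 ± 0.25 for stage 1 NKT against CD4SP (adjusted p = 0.136) and -0.56 ± 0.23 for Luxoid NKT against CD4SP (adjusted p = 0.216). With blocked replicate numbers both differences from CD4SP passed, at -0.76 for stage 1 NKT (adjusted p = 0.0271) and -0.73 for Luxoid NKT (adjusted p = 0.0318). The blocked Luxoid difference does not use array 3, which read 57.0. Both CD4SP arrays were above all NKT arrays. Lack of overlap with CD4SP, in either direction, was common among tested genes: 60.2% for stage 1 NKT and 46% for Luxoid NKT.

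Serpinb1a encodes an inhibitor of serine proteases that marks type 17 cells. Its probe sets read 8.20, 8.94 and 6.69, and 6.17, 5.84 and 6.22, in Luxoid NKT. They read 7.42 and 8.83, and 6.49 and 5.87, in stage 1 NKT, and 8.26 and 9.48, and 9.08 and 7.60, in CD4SP. By mean intensity, 6.36% of all probe sets were dimmer than the first and 4.03% dimmer than the second. The second read higher in both CD4SP arrays than in all NKT arrays, beside the same shares as given for Ccr6. No difference was called for either probe set. With an intensity trend and robust spread, the second was called for Luxoid NKT against CD4SP (-0.45, adjusted p = 0.0462). The first is of a type whose probes may also bind related genes.

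**Figure D3:**
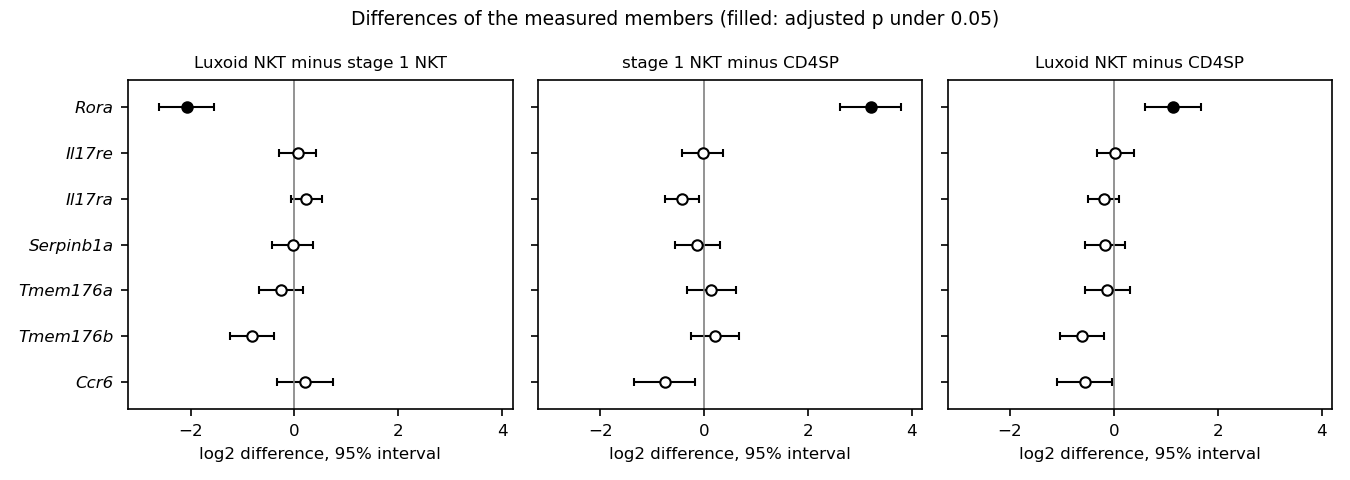
Log2 difference with 95% interval of the main probe set of each measured member, in the fit to all 34945 probe sets, for Luxoid NKT minus stage 1 NKT, stage 1 NKT minus CD4SP and Luxoid NKT minus CD4SP. Filled points have an adjusted p under 0.05, and Rora is the only filled gene in each panel.

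The rest of the type 17 pathway was read from a list of 46 further genes, of which 42 had a probe set of 1 symbol and 30 passed the filter. Il17f, Il17c and Il22 had no such probe set and were not analysed here. For Luxoid against stage 1 NKT, 2 of the 30 rose and 2 fell, beside 0.901% higher and 0.653% lower of all genes tested, with a median of -0.01 against -0.03 over all genes. For stage 1 NKT against CD4SP, 9 were higher and 2 lower, beside 10.8% and 4.08% of all genes (median 0.12 against 0.06). For Luxoid NKT against CD4SP, 9 were again higher and 2 lower, beside 11.3% and 5.51% of all genes (median 0.12 against 0.02). By comparison, 2 of 12 type 2 genes rose and 2 fell between Luxoid and stage 1 NKT (median -0.49), and 3 of 12 type 1 genes rose and 1 fell (median 0.26), both beside the same 0.901% and 0.653% of all genes. Maf, Irf4 and Il17rb stand in both the type 17 and the type 2 list.

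Among receptors that receive type 17 signals, Il12rb1, the partner of Il23r that also serves the receptor of interleukin 12, fell in Luxoid. It read 318, 279 and 243 in Luxoid NKT, 571 and 687 in stage 1 NKT, and 166 and 186 in CD4SP, in the order of groups seen for Rora and without overlap. The fall was 2.25-fold (-1.17 ± 0.16, adjusted p = 0.0106, but 0.0597 and 0.170 without stage 1 NKT array 1 and array 2). It stayed 1.59-fold higher than in CD4SP (0.66 ± 0.16, adjusted p = 0.0267, but 0.0659, 0.160 and 0.0918 without Luxoid array 1, CD4SP array 1 and CD4SP array 2), while stage 1 NKT was 3.57-fold higher than CD4SP (1.84 ± 0.18, adjusted p = 0.000321).

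Il6st, the signalling chain of the interleukin 6 receptor family, rose in Luxoid. It read 1619, 2149 and 2005 in Luxoid NKT, 714 and 714 in stage 1 NKT, and 2605 and 3145 in CD4SP, so Luxoid arrays stood between the others. The rise was 2.68-fold (1.42 ± 0.17, adjusted p = 0.00385, but 0.0584 and 0.0668 without stage 1 NKT array 1 and array 2), and stage 1 NKT was 4.01-fold lower than CD4SP (-2.00 ± 0.18, adjusted p = 0.000223). Luxoid NKT was also lower than CD4SP (-0.58 ± 0.17, adjusted p = 0.0440), a call lost without any 1 array other than Luxoid array 2 (0.0760 to 0.276), with no intensity filter (0.0560), with median centring (0.0652) and with only the 2 groups compared (0.0760).

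Il6ra, the chain that binds interleukin 6, read 583, 690 and 527 in Luxoid NKT, 853 and 984 in stage 1 NKT, and 1604 and 1593 in CD4SP. It was 1.74-fold lower in stage 1 NKT than in CD4SP (-0.80 ± 0.17, adjusted p = 0.0162, but 0.0599 with the mean of probe sets and 0.0538 to 0.121 without any 1 array of either group) and 2.68-fold lower in Luxoid NKT (-1.42 ± 0.16, adjusted p = 0.000514). Its difference between Luxoid and stage 1 NKT was -0.62 ± 0.16 (adjusted p = 0.126). Il6ra and Il6st thus had different orders of the groups.

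Il21r, the receptor of interleukin 21, read 1009, 1174 and 1307 in Luxoid NKT, 626 and 687 in stage 1 NKT, and 971 and 981 in CD4SP. It rose 1.76-fold from stage 1 NKT (0.82 ± 0.15, adjusted p = 0.0359, but 0.0520 with blocked replicate numbers, 0.0866 with only the 2 groups compared and 0.0765 to 0.283 without any 1 array other than Luxoid array 1). The stage 1 NKT difference from CD4SP was -0.57 ± 0.16 (adjusted p = 0.0503), and it passed in 10 of 17 alternatives, with an adjusted p from 0.0203, with blocked replicate numbers, to 0.0471. Its cytokine, Il21, read 405, 264 and 307 in Luxoid NKT, 338 and 163 in stage 1 NKT, and 49.5 and 46.5 in CD4SP. Both CD4SP arrays lay under the filter. Il21 exceeded them by at least 3.91-fold in Luxoid NKT (adjusted p = 0.000485) and by at least 2.86-fold in stage 1 NKT (adjusted p = 0.00253).

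The effector cytokine gene Il17a read 10.6, 10.9 and 10.6 in Luxoid NKT, 10.0 and 10.7 in stage 1 NKT, and 11.2 and 10.6 in CD4SP, far under the filter in every array. Il1r1, the receptor of interleukin 1, read 105, 48.7 and 49.6 in Luxoid NKT, 43.7 and 51.4 in stage 1 NKT, and 45.3 and 46.9 in CD4SP, with 1 Luxoid array over the filter. The cytokines Il23a and Il25 and the chemokine Ccl20 also stayed under the filter.

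Of the transcription factors, Maf, which drives interleukin 17 genes in NKT17 and gamma delta T cells, read 1836, 1476 and 1084 in Luxoid NKT, 2798 and 2690 in stage 1 NKT, and 305 and 152 in CD4SP. The groups did not overlap. It exceeded CD4SP by 6.66-fold in Luxoid NKT (2.73 ± 0.31, adjusted p = 0.000551) and by 12.7-fold in stage 1 NKT (3.67 ± 0.34, adjusted p = 0.000231). Its Luxoid difference from stage 1 NKT was -0.94 ± 0.31 (adjusted p = 0.262, and -1.17 with adjusted p = 0.0461 with the mean of its probe sets).

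Sox13, a factor of interleukin 17-producing gamma delta T cells, read 110.5, 64.9 and 115 in Luxoid NKT, 199 and 348 in stage 1 NKT, and 48.6 and 41.8 in CD4SP. Stage 1 NKT exceeded CD4SP by at least 3.21-fold (adjusted p = 0.00158). Luxoid NKT exceeded CD4SP by at least 1.14-fold (adjusted p = 0.0448, but 0.111 with blocked replicate numbers, 0.0620 with the Y-linked covariate, 0.0638 with no intensity filter and 0.106 to 0.246 without Luxoid array 1 or 3 or either CD4SP array). Its Luxoid difference from stage 1 NKT was -1.49 ± 0.30 (adjusted p = 0.0578), and it passed with the mean of probe sets (0.0342), with an intensity trend and robust spread (0.0380) and with array weights (0.0493).

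Irf4, a factor downstream of the T cell receptor, exceeded CD4SP by 2.02-fold in Luxoid NKT (adjusted p = 0.00410) and by 1.73-fold in stage 1 NKT (adjusted p = 0.0224, but 0.0543 to 0.158 without any 1 array of either group). Stat3 (0.08 ± 0.15, adjusted p = 0.911) and Batf (0.12 ± 0.17, adjusted p = 0.869), which act with the ROR receptors, had no called difference between Luxoid and stage 1 NKT. Neither passed against CD4SP (adjusted p = 0.518 to 0.834).

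Because gamma delta T cells can carry Rora, Sox13, Maf and Blk, their markers were read as well. Of 6 listed, 3 had a probe set and 2 passed the filter. Their summed intensity was 830.3 to 1035 in Luxoid NKT, 1069.7 to 1208 in stage 1 NKT, and 210.1 to 270 in CD4SP. Cd163l1, a scavenger receptor of gamma delta T cells, read 762, 692 and 846 in Luxoid NKT, 761 and 785 in stage 1 NKT, and 172 and 115 in CD4SP, so Luxoid and stage 1 NKT overlapped. Blk, a kinase, read 47.3, 73.4 and 73.4 in Luxoid NKT, 109 and 75.5 in stage 1 NKT, and 49.1 and 52.8 in CD4SP. The values of Sox13, given above, and of Blk were lower in all Luxoid arrays than in both stage 1 NKT arrays. That held for 11.8% of all probe sets. Of the 2 markers tested, 0 were called between Luxoid and stage 1 NKT. The sums of Luxoid and stage 1 NKT did not overlap, while Cd163l1, the largest part of the sum, did. Sox13 and Blk are part of the sum, so these are not separate readings. Both genes also stand in the list of further pathway genes, and Blk reached the filter in only 1 array. Trdc and Trdv4 were not analysed here, and the part of such cells in the Rora values was not tested.

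Among the surface molecules listed with type 17 cells, galectin 3 (Lgals3) fell 5.71-fold in Luxoid (-2.51 ± 0.16, adjusted p = 0.000275). It read 260, 253 and 226 in Luxoid NKT, 1363 and 1443 in stage 1 NKT, and 125 and 91.9 in CD4SP, the same order of groups as Rora. Cxcr6, a chemokine receptor of effector T cells, read 521, 622 and 398 in Luxoid NKT, 944 and 885 in stage 1 NKT, and 43.6 and 38.3 in CD4SP. It exceeded CD4SP by at least 6.16-fold in Luxoid NKT (adjusted p = 1.18e-05) and by at least 11.1-fold in stage 1 NKT (adjusted p = 1.11e-05). Its Luxoid difference from stage 1 NKT was -0.85 ± 0.19 (adjusted p = 0.0870, but 0.0343 without Luxoid array 2 and 0.0426 with the mean of probe sets).

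Il17rb, which encodes the receptor of interleukin 25 and is used by type 2 cells, exceeded CD4SP by 2.75-fold in Luxoid NKT (adjusted p = 0.00126) and by 3.93-fold in stage 1 NKT (adjusted p = 0.000510). Ramp1, which modifies peptide hormone receptors, exceeded CD4SP by 1.88-fold in stage 1 NKT (adjusted p = 0.0130, but 0.106 without stage 1 NKT array 1 and 0.0898 without CD4SP array 1). Its excess in Luxoid NKT was 1.53-fold (adjusted p = 0.0402, but 0.0966 with the mean of probe sets, 0.0617 with blocked replicate numbers, 0.0652 with quantile normalization again, 0.0517 with no intensity filter and 0.0573 to 0.230 without any 1 array of either group). Sdc1, which marks NKT17 cells, read 65.9 to 67.2 in Luxoid NKT, 60.3 and 67.2 in stage 1 NKT, and 69.6 and 73.5 in CD4SP, under the filter.

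**Figure D4:**
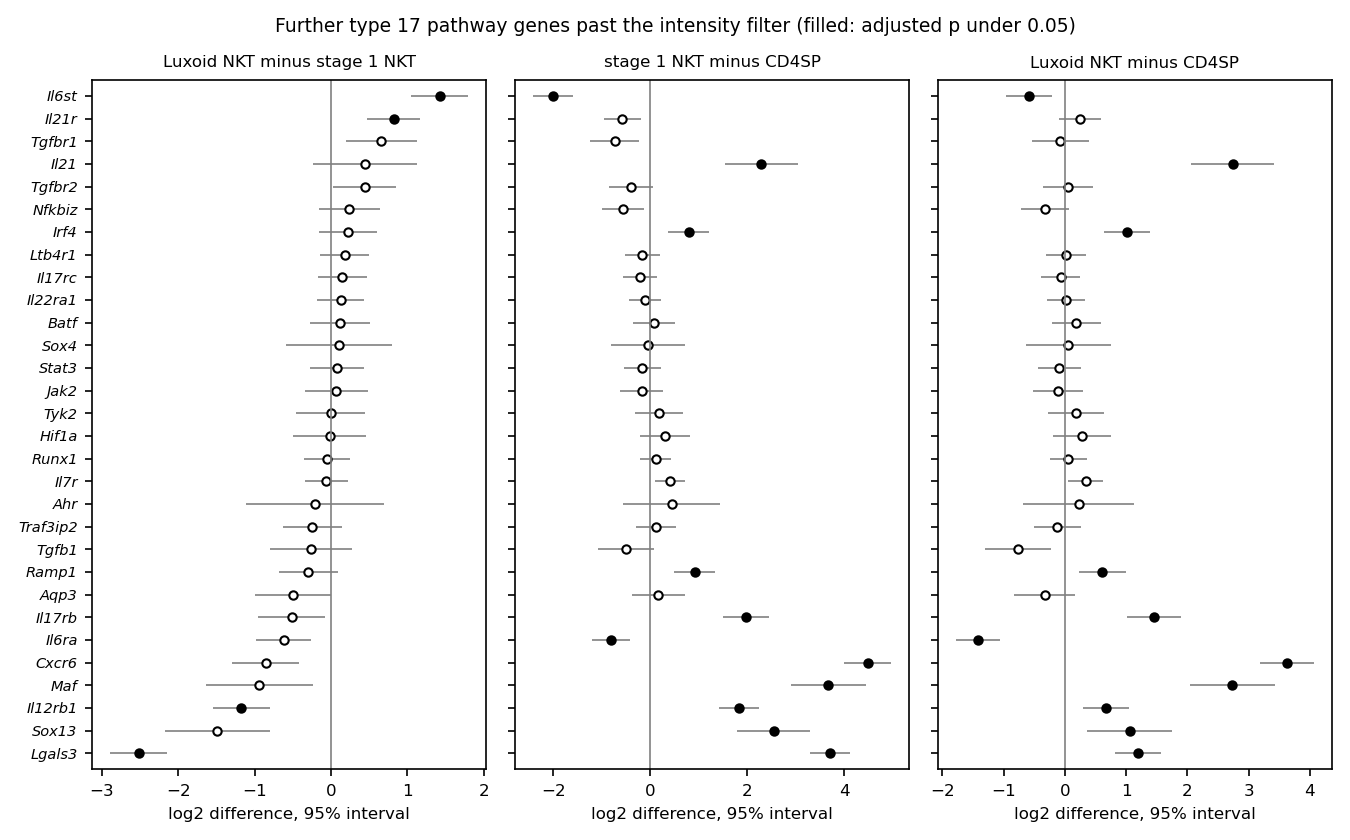
Log2 difference with 95% interval of the 30 further type 17 pathway genes past the intensity filter, ordered by Luxoid NKT minus stage 1 NKT and shown for all 3 comparisons; filled points have an adjusted p under 0.05. Between Luxoid and stage 1 NKT 4 points are filled, Il6st and Il21r above 0 and Il12rb1 and Lgals3 below 0.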

How the data were processed

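The authors deposited linear-scale intensities, made with RMA in Affymetrix Expression Console, per the submitters' processing notes, which name no version. RMA subtracts background, equalises the distributions of the arrays and summarises probes, which compresses differences of dim probe sets. Log2 was taken first. Group means were fitted over the 7 arrays (limma 3.58.1, R 4.3.3), with 4 residual and 4.49 prior degrees of freedom. This was done once on genes past the filter and once on all probe sets with 1 symbol. A check on simulated data drew the noise of every array independently, so it cannot show the effect of deviations shared between arrays. An alternative used the 75th percentile, an intensity of 307, as the filter, and others are given with their effect below. With the dimmer group under 82.0 in all its arrays, a fold is a bound against that intensity.

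Equal replicate numbers deviated together in all 6 pairs of arrays (r = 0.334 to 0.491). These values are not independent: stage 1 NKT with CD4SP gave the same r, 0.431, for both numbers. The labels do not say what a number stands for. The fit as reported therefore does not block by it, and the block is an alternative. The Y-linked gene Kdm5d read 8.28, 6.49 and 11.7 in array 1 of Luxoid NKT, stage 1 NKT and CD4SP. In array 2 of these groups it read 1745, 1120 and 2331. In arrays 1 and 2, replicate number and Y-linked expression therefore cannot be told apart, and the block also takes out differences between the sexes of these pools. Luxoid array 3 has no partner, so the blocked fit does not use it in any difference. Of the probe sets with 1 symbol, 34741 of 34945 matched RefSeq (GRCm38.p6) by gene ID. Members and lists were chosen with earlier results of these data known. Named genes are all members, called pathway genes and a few that the pathway's roles need, and the 3 profiles nearest to a called member; Stat3, Batf, Sdc1, Il23a, Il25 and Ccl20 were named after their values were seen. The labels call the samples biological replicates of pooled mice.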

Additional observations from a re-analysis of the deposited data

How the results depend on the processing

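Rora kept its direction in all 17 alternatives of each comparison and lost its call in 2: for Luxoid against stage 1 NKT without stage 1 NKT array 2 (-1.99, adjusted p = 0.0638) and for Luxoid NKT against CD4SP without CD4SP array 1 (0.89, adjusted p = 0.104). Leaving out 1 array gave -2.28 to -1.96, 2.97 to 3.45 and 0.89 to 1.38 for Luxoid against stage 1 NKT, then stage 1 NKT and Luxoid NKT, each against CD4SP, an order kept below. The mean of its 9 probe sets, 2 of them dim, gave smaller sizes (-1.58, 2.29 and 0.72). Member probe sets called were 6, 8 and 3; 5, 9 and 3 with blocked replicate numbers; and 0 to 6, 7 to 8 and 0 to 2 without 1 array; with only the groups compared, the last was 1. All genes called were 169, 1621 and 1831, and 55 to 178, 643 to 1846 and 866 to 1726 without 1 array, where fits that leave 1 array in a group assume that it varies like the others. With the replicate number as a block, 2616 genes were called for stage 1 NKT against CD4SP. Further pathway genes called for Luxoid against stage 1 NKT, 4, became 7 with the mean of probe sets and 1 without either stage 1 NKT array, and for Luxoid NKT against CD4SP, 11, became 7 without Luxoid array 1 or either CD4SP array; these counts were added after the data were seen. The replicate block changed no call of the main Rora probe set (-2.28, 3.21 and 0.93), and its other changes to genes named here stand beside their values. Most members lie near background, where the arrays say little about differences.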
